A study of Mus musculus with 12 samples.

Results

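Metallothioneins bind zinc and copper in the cell, and a small set of transporters and chaperones carries copper across membranes and to its enzymes. Their transcripts were described here in mouse libraries labelled as brain or skull after photothrombosis (PT) at the other site. The genes were taken from a list of names: Mt1, Mt2 and Mt3 (metallothioneins), Mtf1 (a zinc-sensing transcription factor), Slc31a1 (copper import), Atox1, Ccs and Sco1 (copper chaperones and an assembly factor) and Atp7a and Atp7b (copper-exporting ATPases). All 10 were found among the 22317 gene symbols of the deposited count matrix.

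The study used wild-type male BALB/c mice that were 8 weeks old, and closed small vessels by laser light after an injection of the dye Rose Bengal into the tail vein. The groups SB2 and SB4 are labelled brain cortex on day 2 and day 4 after ischemic injury of the skull. The groups BS2 and BS6 are labelled interparietal bone, a bone of the skull vault, on day 2 and day 6 after ischemic injury of the brain. Each group holds 3 libraries of poly(A) mRNA, which the study calls biological replicates. By their labels, all 12 libraries come from mice with an injury at the other site. Libraries labelled as untreated tissue or as the injured site were not analysed here, so no value below is a change from an uninjured state.

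The libraries did not hold the tissue transcripts that all of their labels name. The summed level of 8 neuron markers (Snap25, Syt1 and others) was 64.3 to 105 CPM (counts scaled to the library size, normalized by TMM) in SB2 and 70.2 to 140 CPM in BS6, against 11000 to 12000 CPM in SB4 and 10700 to 11100 CPM in BS2. The summed level of 7 osteoblast and osteocyte markers (Col1a1 and others) was 68300 to 77900 CPM in SB2 and 39200 to 160000 CPM in BS6, against 14 to 20.9 CPM in SB4 and 17.8 to 38.3 CPM in BS2. Every neuron marker exceeded 3 counts in some library of each group, whereas the bone marker Ibsp had at most 3 counts in every library of SB4 and BS2. SB2 and BS6 are therefore called bone-rich and SB4 and BS2 brain-rich below, and group names stand for the libraries labelled so. In SB2 and BS2 the transcripts were those of the tissue labelled as injured. Whether the injured site was sampled there cannot be told from these data. In each comparison of days, the later and the earlier group also differ in these tissue transcripts, and day and tissue content cannot be told apart. Replicate 2 of BS6 stood apart from the other libraries of its group, with neutrophil markers (S100a8, S100a9 and others) at 24300 CPM against 1410 and 3310 CPM. The total count per library was 14126082 to 18972654. In bulk tissue, fewer cells of a type and less RNA per cell cannot be told apart.

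As background, metallothioneins are small proteins in which cysteine residues hold the metal ions. Mt1 and Mt2 are made in most tissues and are induced by zinc, copper, cadmium and glucocorticoids, whereas Mt3 is found mainly in the brain. Zinc activates the factor that Mtf1 encodes, and it then binds metal response elements in the promoters of Mt1 and Mt2. Copper enters the cell through the transporter encoded by Slc31a1. Atox1 hands it to the pumps Atp7a and Atp7b, which are defective in Menkes disease and in Wilson disease, Ccs hands it to the superoxide dismutase Sod1, and Sco1 serves the copper site of cytochrome c oxidase.

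The coding sequences of the 3 metallothionein genes, which lie near each other on the plus strand of chromosome 8, are shown because read assignment between them depends on how alike they are. They were read from the annotated transcripts (GENCODE M21, mm10) and span chr8:94179311-94180193 for Mt1, chr8:94172848-94173427 for Mt2 and chr8:94152800-94154010 for Mt3, introns included in the span. Cysteine codons are in capitals.
Mt1: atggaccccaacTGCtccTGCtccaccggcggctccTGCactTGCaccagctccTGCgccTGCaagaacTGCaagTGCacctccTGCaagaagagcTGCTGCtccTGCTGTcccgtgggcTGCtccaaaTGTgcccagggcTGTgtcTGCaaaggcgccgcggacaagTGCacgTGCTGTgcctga
Mt2: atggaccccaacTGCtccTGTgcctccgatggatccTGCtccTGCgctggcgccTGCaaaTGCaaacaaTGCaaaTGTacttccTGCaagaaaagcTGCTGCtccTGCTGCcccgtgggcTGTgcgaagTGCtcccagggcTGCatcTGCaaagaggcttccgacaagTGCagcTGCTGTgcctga
Mt3: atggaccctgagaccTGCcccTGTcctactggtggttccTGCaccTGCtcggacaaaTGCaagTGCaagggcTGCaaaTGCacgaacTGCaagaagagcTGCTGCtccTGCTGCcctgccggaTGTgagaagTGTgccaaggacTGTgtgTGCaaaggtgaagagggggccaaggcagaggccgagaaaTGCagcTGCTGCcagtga

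Each coding sequence held 20 cysteine codons, among 61 codons without the stop in Mt1 and Mt2 and 68 in Mt3. Mt1 and Mt2 were identical at 79.6% of aligned bases, Mt1 and Mt3 at 66.2%, and Mt2 and Mt3 at 67.6%. The longest run of bases shared by a pair was 27 (Mt1 and Mt3), and no pair shared a run of 31. How the authors treated reads with several matches is not given in the sources used here.

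The 250 bases before the start sites of Mt1, Mt2 and Mt3 are shown because they were searched for the core of the metal response element, the sequence that the factor encoded by Mtf1 binds. They are RefSeq promoters of the assembly GRCm38.p6 (strain C57BL/6J, whereas the mice were BALB/c), at chr8:94178839-94179088 for Mt1, chr8:94172368-94172617 for Mt2 and chr8:94152357-94152606 for Mt3, all on the plus strand. Capitals mark matches to the core TGCACNC or TGCGCNC on either strand.
Mt1 promoter: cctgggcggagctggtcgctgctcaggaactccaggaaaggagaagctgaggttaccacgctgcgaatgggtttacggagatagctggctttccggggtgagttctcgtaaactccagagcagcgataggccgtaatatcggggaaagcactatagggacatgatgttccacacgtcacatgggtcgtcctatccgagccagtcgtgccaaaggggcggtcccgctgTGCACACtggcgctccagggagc
Mt2 promoter: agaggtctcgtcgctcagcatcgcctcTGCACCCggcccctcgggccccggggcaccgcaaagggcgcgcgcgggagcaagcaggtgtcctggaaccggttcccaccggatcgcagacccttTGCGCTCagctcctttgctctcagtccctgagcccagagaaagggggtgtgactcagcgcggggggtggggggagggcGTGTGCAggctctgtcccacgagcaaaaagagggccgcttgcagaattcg
Mt3 promoter: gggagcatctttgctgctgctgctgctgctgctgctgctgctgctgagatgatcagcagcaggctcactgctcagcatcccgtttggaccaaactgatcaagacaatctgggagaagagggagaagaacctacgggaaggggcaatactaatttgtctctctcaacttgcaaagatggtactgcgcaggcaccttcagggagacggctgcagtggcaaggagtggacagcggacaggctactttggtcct

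The search covered windows of 300 bases, from 250 before to 50 after the start site, for the 9 genes with a RefSeq promoter (all but Ccs). Mt2 held 4 matches, starting at -223, -128, -50 and 5 relative to the start site, and 2 of them were on the opposite strand. Mt1 held 3 matches, at -23, 3 and 21. Mt3 held 1 match, at 28, past the bases printed above. Atp7a held 2 and Atp7b 1, and no match was found in the windows of Mtf1, Slc31a1, Atox1 and Sco1. Of 32851 promoter windows of the same length, 25.7% held at least 1 match, 1.97% at least 3 and 0.517% at least 4. A match is a run of letters and not a measured site. Positions count from the RefSeq start site, and another start site would change them. The windows of Mt1 and Mt2 ended at 94179138 and 94172667, before their coding starts at 94179311 and 94172848. The bases between were not searched.

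**Figure D1:**
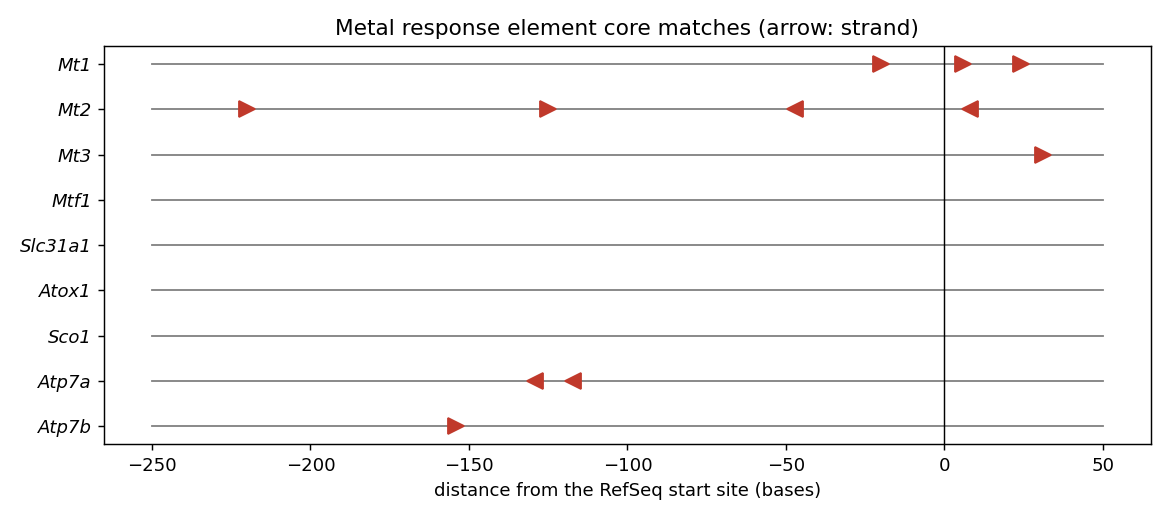
Matches to the metal response element core in the promoter windows of 9 genes, plotted by distance from the RefSeq start site in bases. Arrows pointing right are on the strand of the gene and arrows pointing left on the opposite strand. Mt2 has 4 matches and Mt1 has 3, while 4 of the genes have none.

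Mt1 (chr8:94179082-94180327) was read in every library and did not separate the groups. Its level was 135, 114 and 98.5 CPM in the SB2 replicates, 76.6, 109.5 and 86.1 CPM in SB4, 80.8, 78.4 and 74.9 CPM in BS2, and 52.2, 163 and 91.0 CPM in BS6. The replicates of BS2 lay close together, those of BS6 spanned all other libraries, and every pair of groups compared overlapped. BS6 replicate 2, the library with the high neutrophil markers, was the highest of all 12. The log2 fold change was -0.35 in SB4 against SB2 (standard error 0.16, adjusted p = 0.0753) and 0.43 in BS6 against BS2 (standard error 0.39, adjusted p = 0.348, by the quasi-likelihood test of edgeR with p-values adjusted by Benjamini-Hochberg over all genes tested). Over its 15 alternatives the adjusted p of the first value was 0.0093 to 0.315, on both sides of 0.05, and the value was -0.48 to -0.22 with libraries left out in turn (nearest to 0 without replicate 1 of SB2 or of SB4). The second value was -0.09 without BS6 replicate 2 and 0.75 without BS6 replicate 1 (adjusted p = 0.0403), and over its 15 alternatives the adjusted p was 0.0403 to 0.739. The part of neutrophil transcripts in the level of Mt1 was not tested.

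Mt2 (chr8:94172664-94173568) had almost no counts. They were 20, 6 and 2 in the SB2 replicates, 0, 7 and 5 in SB4, 8, 0 and 4 in BS2, and 2, 8 and 7 in BS6, so that no library exceeded 1.14 CPM. In 4 of the 12 libraries Mt2 was at or under 3 counts, which is as much as a count of 0 allows for and equals 0.163 to 0.218 CPM at these depths (counting error only). SB2 replicate 1 alone held 20 of the 28 counts of its group, and the groups overlapped. Mt2 did not pass the filter on low counts and was not tested in the comparisons. Without that filter, SB4 against SB2 gave -1.28 (95% interval -3.20 to 0.64) and BS6 against BS2 gave 0.49 (-1.74 to 2.73), and both intervals include 0. In the annotation, the antisense gene Gm45774 (chr8:94170748-94173412, minus strand) covers 432 of the 588 exonic bases of Mt2, or 73.5%, and Gm45774 itself had 0 to 3 counts per library. The sources used here do not say whether the counting used strand or how it treated such overlaps. Reads of a gene and of its antisense partner may then not be told apart, and the part of the overlap in the low level of Mt2 was not tested.

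Mt3 (chr8:94152607-94154146), the metallothionein of the brain, followed the tissue transcripts. It was at 15.7, 15.4 and 12.9 CPM in SB2 and 9.72, 10.5 and 16.9 CPM in BS6, against 65.8, 78.9 and 62.2 CPM in SB4 and 69.2, 74.0 and 60.7 CPM in BS2. Every brain-rich library was above every bone-rich library. The mean was 4.70-fold higher in SB4 than in SB2 and 5.50-fold higher in BS2 than in BS6. By edgeR's quasi-likelihood test (Benjamini-Hochberg), Mt3 rose by 2.24 on the log2 scale in SB4 against SB2 (standard error 0.11, adjusted p = 5.681e-09) and fell by 2.42 in BS6 against BS2 (standard error 0.23, adjusted p = 0.000131). The summed level of 8 astrocyte markers moved with it, from 776 to 890 CPM in SB2 to 5310 to 5600 CPM in SB4, and from 5290 to 5790 CPM in BS2 to 556 to 780 CPM in BS6. Of these 8 markers, 7 were called higher and 1 lower in SB4 against SB2, and 5 lower and 1 higher in BS6 against BS2. The part of these cells in the level of Mt3 was not tested.

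Mtf1 (chr4:124802104-124849800) varied less between groups than Mt3. It was at 23.8, 21.4 and 21 CPM in SB2 and 34.4, 31.1 and 33.6 CPM in SB4, and these groups did not overlap. It was at 33.6, 30.5 and 33.6 CPM in BS2 and 21.3, 32.1 and 23.9 CPM in BS6, where replicate 2 reached into the range of BS2. By edgeR's quasi-likelihood test (Benjamini-Hochberg), the log2 fold change of 0.58 in SB4 against SB2 (standard error 0.09) had an adjusted p of 0.000111 but lay under the fold change threshold of 1. The value in BS6 against BS2 was -0.30 (standard error 0.18, adjusted p = 0.167), and -0.49 without BS6 replicate 2 (adjusted p = 0.00267, and 0.00267 to 0.398 over 15 alternatives). The gene 1110065P20Rik on the opposite strand covers 8.09% of the exonic bases of Mtf1.

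**Figure D2:**
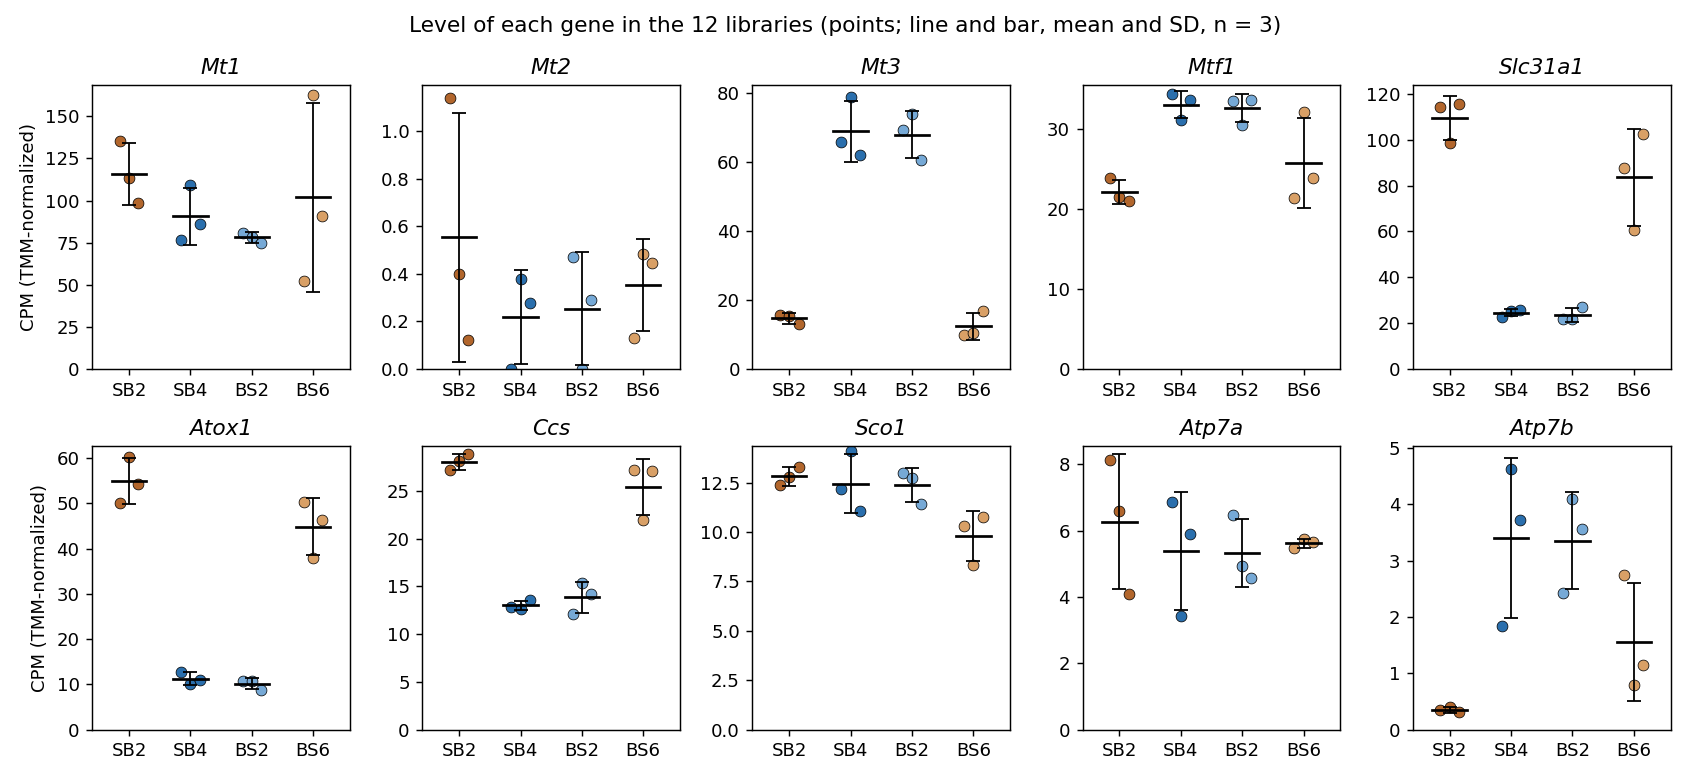
Level of each of the 10 genes in TMM-normalized CPM (vertical axis, from 0) in the 12 libraries by group. Points are libraries, the line is the mean and the bar the SD (n = 3). Mt3, Slc31a1, Atox1 and Ccs separate SB4 and BS2 from SB2 and BS6, while Mt1, Sco1 and Atp7a do not.

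The copper importer and both chaperones of the cytosol were higher in the bone-rich libraries. Markers of other cells separated the same libraries. The summed macrophage and microglia markers were 1100 to 2660 CPM in the bone-rich and 114 to 155 CPM in the brain-rich libraries, and the summed endothelium markers 666 to 917 and 72 to 113 CPM. The summed erythroid markers were 1300 to 12800 and 157 to 536 CPM, and the neutrophil markers 848 to 24300 and 0.708 to 4.62 CPM. Their part in the levels of these genes was not tested. Slc31a1 (chr4:62360727-62391769) was at 114, 98.5 and 116 CPM in SB2 and 87.6, 60.8 and 103 CPM in BS6, against 22.7, 25.3 and 25.5 CPM in SB4 and 21.6, 22.0 and 27.0 CPM in BS2. Its lowest bone-rich library, BS6 replicate 2, was still above every brain-rich one. By edgeR's quasi-likelihood test (Benjamini-Hochberg), it fell by 2.15 on the log2 scale in SB4 against SB2 (standard error 0.09, adjusted p = 8.166e-10) and rose by 1.87 in BS6 against BS2 (standard error 0.21, adjusted p = 0.000269). The gene body overlaps Cdc26 on the opposite strand, but no exonic base is shared.

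Atox1 (chr11:55446641-55461239, minus strand) was at 50.01, 60.1 and 54.3 CPM in SB2 and 50.3, 37.9 and 46.3 CPM in BS6, against 12.8, 10 and 11.03 CPM in SB4 and 10.8, 10.8 and 8.79 CPM in BS2. The bone-rich and brain-rich libraries did not overlap. The mean was 4.86-fold lower in SB4 than in SB2 and 4.41-fold higher in BS6 than in BS2. The log2 fold changes were -2.28 (standard error 0.11, adjusted p = 4.967e-09) and 2.18 (standard error 0.16, adjusted p = 4.12e-05) by edgeR's quasi-likelihood test (Benjamini-Hochberg).

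Ccs (chr19:4825366-4839332, minus strand) moved in the same directions by less. It was at 27.2, 28.2 and 28.8 CPM in SB2 and 27.1, 22.0 and 27.1 CPM in BS6, against 12.8, 12.6 and 13.5 CPM in SB4 and 12.1, 15.3 and 14.2 CPM in BS2, again with no overlap between bone-rich and brain-rich libraries. It fell by 1.10 on the log2 scale in SB4 against SB2 (standard error 0.09, adjusted p = 4.851e-07, edgeR's quasi-likelihood test, Benjamini-Hochberg). In BS6 against BS2 the log2 fold change was 0.91 (standard error 0.15, adjusted p = 0.00133), under the fold change threshold. Without BS6 replicate 2 it was 1.01 (adjusted p = 7.46e-05), which is a call, and over its 15 alternatives the adjusted p was 2.25e-06 to 0.00829. Sod1, the enzyme that Ccs supplies, had log2 fold changes of -0.09 and 0.02 in these comparisons and was not called.

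Sco1 (chr11:67052670-67067070) was not called in either comparison of days. It was at 12.4, 12.8 and 13.3 CPM in SB2, 12.2, 14.1 and 11.1 CPM in SB4, 12.98, 12.7 and 11.4 CPM in BS2, and 10.3, 8.34 and 10.8 CPM in BS6. The BS6 libraries lay below all others, and the log2 fold change in BS6 against BS2 was -0.30 (95% interval -0.67 to 0.07; adjusted p = 0.116 by edgeR's quasi-likelihood test (Benjamini-Hochberg)). In SB4 against SB2 it was -0.04 (95% interval -0.31 to 0.24).

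The copper pumps differed in pattern. Atp7a (chrX:106027276-106124926) was at 8.14, 6.59 and 4.09 CPM in SB2, 6.88, 3.42 and 5.90 CPM in SB4, 6.49, 4.93 and 4.58 CPM in BS2, and 5.48, 5.74 and 5.66 CPM in BS6. Its groups overlapped in every comparison. The log2 fold change was -0.22 in SB4 against SB2 (95% interval -0.93 to 0.48) and 0.11 in BS6 against BS2 (95% interval -0.36 to 0.59).

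Atp7b (chr8:21992785-22060305, minus strand) was low throughout. It had 6, 6 and 5 counts in SB2 (0.342, 0.400 and 0.305 CPM), 26, 85 and 67 counts in SB4 (1.84, 4.62 and 3.73 CPM), 41, 64 and 49 counts in BS2 (2.42, 4.10 and 3.56 CPM), and 42, 13 and 18 counts in BS6 (2.74, 0.785 and 1.15 CPM). SB2 lay below every other library, and BS6 replicate 1 lay within the range of BS2. Its counts in SB2 were under the minimum of 10 in every library, so against SB2 it passed the filter through SB4 or BS6, and a call there is no independent support of a difference. The log2 fold change in SB4 against SB2 was 3.28 (standard error 0.42, adjusted p = 1.959e-05, edgeR's quasi-likelihood test, Benjamini-Hochberg). In BS6 against BS2 the value was -1.07 (standard error 0.49, adjusted p = 0.0855). Without BS6 replicate 1 it was -1.75 (adjusted p = 0.0072), and in a fit over all 12 libraries it was -1.07 (adjusted p = 0.0438), which are calls. Over its 15 alternatives the adjusted p was 0.0072 to 0.211.

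Counted over the group, 9 of the 10 genes were tested in each comparison. In SB4 against SB2, 2 were called higher (Mt3, and Atp7b, which passed the filter through its higher group) and 3 lower (Slc31a1, Atox1 and Ccs), where 27.8% of all genes tested were called higher and 28.6% lower (adjusted p below 0.05, log2 fold change above 1 in size). In BS6 against BS2, 2 were called higher (Slc31a1 and Atox1) and 1 lower (Mt3), against 29.0% and 26.5% of all genes tested. These shares are near the background of their comparisons, so the counts do not set the copper genes apart. The median log2 fold change of the 9 genes was -0.22 in SB4 against SB2 and 0.11 in BS6 against BS2, and that of all genes tested was -0.01 and 0.02.

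The groups that were both brain-rich or both bone-rich were compared to set the genes side by side where the main tissue markers were of the same kind. Between SB4 and BS2, both brain-rich, 0 of the 9 genes were called by edgeR's quasi-likelihood test, 0 had an unadjusted p under 0.05 (11.9% of all genes tested had), and DESeq2 called 0, where 0.0860% of all genes tested were called higher and 0.0614% lower. The log2 fold changes reached at most 0.20 in size (Mt1), and the 95% interval of Mt3 was -0.18 to 0.19 and that of Slc31a1 -0.16 to 0.25. For Atp7b, with fewer counts, the interval was -0.57 to 0.63.

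Between BS6 and SB2, both bone-rich, 0 of the 9 genes were called by edgeR's quasi-likelihood test, where 1.11% of all genes tested were called higher and 0.741% lower. At an unadjusted p under 0.05 there were 2, Sco1 and Atp7b, where 29.2% of all genes tested passed that limit, so this count does not set them apart. Atp7b was 4.46-fold higher by mean in BS6 with no overlap between the groups (log2 fold change 2.15, 95% interval 0.80 to 3.49, adjusted p = 0.0726 by edgeR's quasi-likelihood test (Benjamini-Hochberg)). DESeq2 called it (2.17, adjusted p = 0.0178), as did edgeR's test without BS6 replicate 2 (2.46, adjusted p = 0.0139) and in the fit over all 12 libraries (2.18, adjusted p = 0.0191). BS6 replicate 1 was the highest of its group, and without it the value was 1.47 (adjusted p = 0.101). Over its 14 alternatives the adjusted p was 0.0139 to 0.243. Sco1 was lower in all BS6 libraries, with a log2 fold change of -0.37 (95% interval -0.72 to -0.02, adjusted p = 0.155 by the same edgeR test). Both groups held bone markers and few neuron markers, but their marker levels were not the same. The summed osteoblast and osteocyte markers of BS6 were 111000, 39200 and 160000 CPM, all outside the 68300 to 77900 CPM of SB2. The summed level of 6 macrophage and microglia markers was 1580 to 2660 CPM in BS6 against 1100 to 1240 CPM in SB2. The summed level of 6 erythroid markers was 7750 to 12800 CPM in BS6 against 1300 to 4610 CPM in SB2, that of 6 neutrophil markers 1410 to 24300 against 848 to 1520 CPM, and that of 5 skeletal muscle markers 69.4 to 567 against 287 to 2470 CPM, and their part in these values was not tested. The interval of Mt1 was -1.12 to 0.80 and that of Slc31a1 was -0.84 to 0.09.

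**Figure D3:**
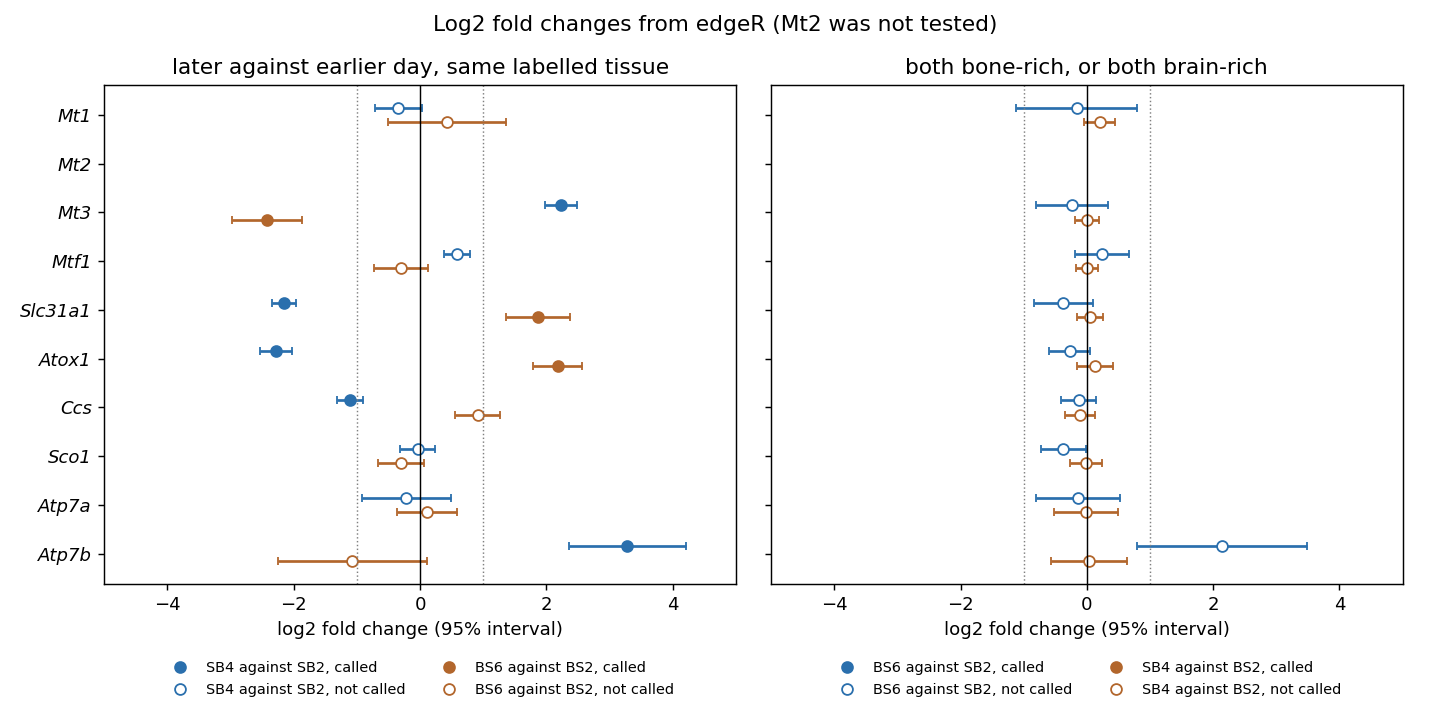
Log2 fold change with its 95% interval (horizontal axis) for each gene. The left panel compares the later with the earlier day of the same labelled tissue and the right panel the groups that are both bone-rich or both brain-rich. Filled points are called, and dotted lines mark the fold change threshold. Mt3 and Slc31a1 lie on opposite sides of 0 in the left panel, and Atp7b in BS6 against SB2 is the value farthest from 0 in the right panel.

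The contrast of both changes, SB4 minus SB2 less BS6 minus BS2, was tested over all 12 libraries by edgeR's quasi-likelihood test (Benjamini-Hochberg). Of the 9 genes, 2 were called higher (Mt3, and Atp7b with its few counts in SB2) and 3 lower (Slc31a1, Atox1 and Ccs), where 35.8% of all genes tested were called higher and 37.8% lower. The difference was 4.65 for Mt3 (standard error 0.27) and -4.46 for Atox1 (standard error 0.21). It was 0.25 for Sco1 (95% interval -0.15 to 0.66) and -0.34 for Atp7a (95% interval -1.26 to 0.59), which were not called. By its arithmetic this contrast sets both brain-rich groups (SB4 and BS2) against both bone-rich groups (SB2 and BS6), and each side holds a day 2 group and a later one. A difference shared by both later groups thus cancels in it.

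Ratios of counts within a library do not depend on the scaling between libraries. The ratio of Mt1 to Mt3 was 1.17 to 1.39 in SB4 and 1.06 to 1.23 in BS2, against 7.39 to 8.60 in SB2 and 5.38 to 15.5 in BS6, where replicate 2 held the highest value. The ratio of Slc31a1 to Mtf1 was 0.660 to 0.815 in SB4 and 0.645 to 0.803 in BS2, against 4.59 to 5.51 in SB2 and 1.89 to 4.30 in BS6. The ratio of Atox1 to Ccs was below 1 in every brain-rich library and 1.71 to 2.13 in the bone-rich ones. The ratio of Atp7a to Atp7b was 13.4 to 23.8 in SB2, where it rests on 5 or 6 counts of Atp7b. It was 2.00 to 7.31 in BS6, 0.741 to 3.73 in SB4 and 1.2 to 2.68 in BS2, so that BS6 overlapped the brain-rich groups. These are ratios of counts and not of levels per length, so only their differences between libraries can be read.

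**Figure D4:**
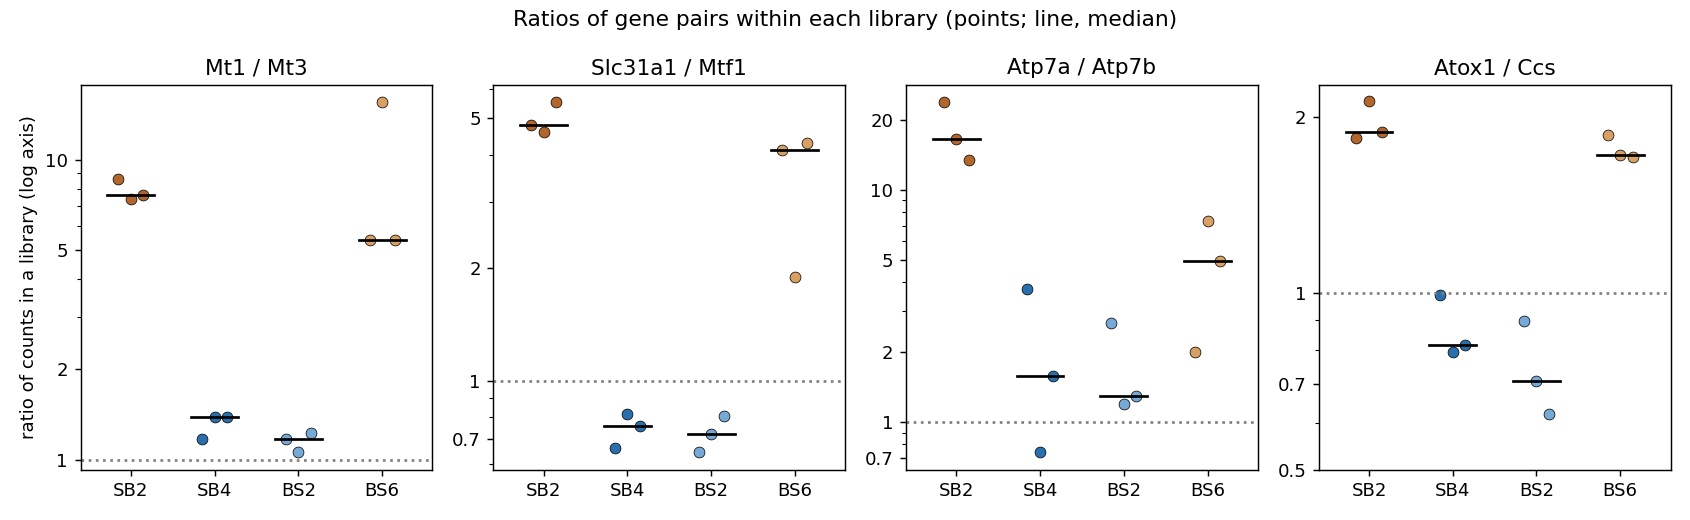
Ratio of the counts of a pair of genes within each library (log axis), for 4 pairs, by group. Points are libraries, the line is the median and the dotted line a ratio of 1. The brain-rich groups SB4 and BS2 lie near or below 1 for Slc31a1 over Mtf1 and Atox1 over Ccs, and the bone-rich groups lie above 1.

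Per kilobase of exonic length, Atox1 had the highest level of the 10 genes in SB2 (101 ± 9.40 CPM per kb, SD, n = 3) and Mt1 came next (92.9 ± 14.8 CPM per kb), a difference within the spread of the replicates. In SB4, Mt1 was at 72.8 ± 13.6 and Mt3 at 64.7 ± 8.28 CPM per kb, also within their spread, and Atox1 followed at 20.8 ± 2.58 CPM per kb. In BS2, Mt3 was at 63.8 ± 6.36 and Mt1 at 62.6 ± 2.39 CPM per kb, above Atox1 at 18.8 ± 2.19. In BS6, Atox1 was at 82.9 ± 11.8 and Mt1 at 81.9 ± 45.0 CPM per kb. The order depends on the length used: with the principal transcript (549 bases for Mt1 in place of 1246 exonic bases), Mt1 came first in all 4 groups, at 142 to 211 CPM per kb. Slc31a1 stood at 25.6 ± 2.23 CPM per kb in SB2 and 5.50 ± 0.704 in BS2, whereas Mtf1 stood between 2.48 and 3.71 CPM per kb in all groups. Atp7a was between 0.610 and 0.719 CPM per kb, above Atp7b at 0.0536 ± 0.00731 in SB2 and near Atp7b at 0.523 ± 0.218 in SB4. With the principal transcript, Atp7a stood at 1.10 CPM per kb in SB4 against the same 0.523 for Atp7b.

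The genes whose levels were most like those of each member over the 12 libraries were found by Pearson's r of log2(CPM + 1) among genes that averaged 10 CPM or more. For Mt3 they were Pfn2, Ckb and Sfxn4 (r of 0.994, 0.994 and 0.993), and Ckb, brain-type creatine kinase, was at 1120 CPM in SB4 and 309 CPM in SB2. For Slc31a1 they were Fam167a, Rrbp1 and Zfp469 (0.996, 0.995 and 0.995), for Atox1 Olfml2b, Asap3 and Rps24-ps3 (0.998, 0.997 and 0.997) and for Ccs Steap3, Ror2 and Fkbp7 (0.995, 0.995 and 0.994). For Mtf1 they were Ggnbp2, Tuba4a and Rsbn1l (0.982, 0.978 and 0.977) and for Atp7b Usp35, Lrsam1 and Dennd1a (0.953, 0.952 and 0.946). The likeness was lower for Mt1 (Eif1 0.914, Dbr1 0.898, Gbe1 0.875) and Sco1 (Mettl13 0.940, Klhl9 0.931, Cops4 0.930), and lowest for Mt2 (Wwp1 0.807, Dbr1 0.745) and Atp7a (Smc6 0.650, Plk3 0.641, Exosc7 0.619). The libraries share their tissue contents, so a high r says nothing of shared function or control.

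Among the members themselves, r over the 12 libraries was 0.975 for Slc31a1 and Atox1, 0.982 for Slc31a1 and Ccs and -0.959 for Mt3 and Atox1. After the group means were removed, the same pairs had r of 0.071, 0.641 and 0.064. The likeness of Slc31a1 and Atox1 over all libraries was thus between groups and hardly within them. For Mt1 and Mtf1 the order was the reverse, with r of -0.016 over all libraries and 0.805 within groups, where BS6 replicate 2 was the highest of its group in both genes. These values describe 12 libraries and carry no test.

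The other genes of copper handling were taken from lists chosen with earlier results of these data known. Of 12 further copper delivery genes tested, 0 were called higher and 4 lower in SB4 against SB2 (median log2 fold change -0.36), and of 11 tested in BS6 against BS2, 3 were called higher and 0 lower (median 0.30). The shares over all genes tested, against which the counts of these and the next lists are to be read, were 27.8% higher and 28.6% lower in SB4 against SB2 and 29.0% and 26.5% in BS6 against BS2. Steap4 and Steap3, metalloreductases that reduce iron and copper at membranes, had the largest changes among called genes that averaged 10 CPM or more in the higher group. Steap4 was at 103 ± 1.92 CPM in SB2 and 99.7 ± 24.7 CPM in BS6, against 0.362 ± 0.299 CPM in SB4 and 0.410 ± 0.0889 CPM in BS2, and its log2 fold changes were -8.07 (SB4 against SB2) and 7.94 (BS6 against BS2). Steap4 did not pass the filter on low counts in SB4 against BS2, so against these groups it passed through SB2 or BS6. Its calls are thus no independent support of a difference, and its fold changes are not exact. The same holds for a further member of the list, Steap1, called in SB4 against SB2. Steap3 had log2 fold changes of -4.58 and 3.84. Slc31a2, a relative of Slc31a1, was called with -1.82 and 2.59. The mitochondrial copper genes Cox11 and Cox17 had log2 fold changes of -0.08 and -0.11 in SB4 against SB2 and were not called.

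Of 12 copper-dependent enzymes tested, 0 were called higher and 9 lower in SB4 against SB2 (median -5.03), and 10 were called higher and 0 lower in BS6 against BS2 (median 4.77). Over all genes tested, 28.6% were called lower in the former and 29.0% higher in the latter. The called enzymes include Loxl2, Loxl4 and Aoc3, which did not pass the filter on low counts in SB4 against BS2. They passed it through SB2 or BS6, so their calls are no independent support of a difference. The counts and medians of this list rest partly on them. Lox and Loxl2 encode lysyl oxidases, which cross-link collagen. Lox was at 1006 ± 179 CPM in SB2 and 547 ± 251 CPM in BS6, against 0.844 ± 0.618 CPM in SB4 and 1.07 ± 0.502 CPM in BS2. Its log2 fold changes were -10.13 and 9.05, and those of Loxl2 were -10.21 and 8.69. The values of Loxl2 are not exact, since it was at 0.265 CPM in SB4 and 0.361 CPM in BS2. The summed osteoblast and osteocyte markers were also higher in SB2 and BS6, and their part was not tested.

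Zinc transporters were called in both directions. The zinc exporters listed were genes of the Slc30 family, taken by name and not by the metal that each carries. Of 9 tested, 5 were called higher and 2 lower in SB4 against SB2 (median 1.17). In BS6 against BS2, 1 was called higher and 5 lower (median -1.63). Over all genes tested, 27.8% were called higher and 28.6% lower in the former and 29.0% and 26.5% in the latter. Slc30a3, which loads zinc into synaptic vesicles, was at 85.3 ± 6.78 CPM in SB4 and 88.7 ± 6.26 CPM in BS2, against 0.422 ± 0.136 CPM in SB2 and 0.787 ± 0.445 CPM in BS6 (log2 fold changes 7.62 and -6.75). Slc30a10 had 4.78 and -3.30. Slc30a7, a zinc transporter of the secretory pathway, went the other way, with -1.77 and 1.39, and Slc30a6 had -1.07 in SB4 against SB2. Slc30a3 and Slc30a2, another exporter called in both comparisons, did not pass the filter on low counts in BS6 against SB2. Against these groups they passed it through SB4 or BS2. Their calls are thus no independent support of a difference, and their fold changes are not exact. Slc30a10 was also low in SB2 (0.704 ± 0.507 CPM).

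Of 13 zinc importers tested, 3 were called higher and 7 lower in SB4 against SB2 (median -1.51), and 7 higher and 3 lower in BS6 against BS2 (median 1.24), beside the same shares over all genes, to which 3 of 13 lies near. Slc39a12 was at 47.0 ± 4.58 CPM in SB4 and 50.8 ± 4.28 CPM in BS2, against 0.648 ± 0.167 CPM in SB2 and 2.01 ± 1.35 CPM in BS6 (log2 fold changes 6.16 and -4.61), and Slc39a10 had 3.15 and -3.32. Slc39a1 had -3.15 and 2.39. Slc39a13, whose loss impairs bone and connective tissue, was at 176 ± 11.7 CPM in SB2 and 173 ± 57.9 CPM in BS6, against 20.5 ± 1.55 CPM in SB4 and 19.9 ± 0.745 CPM in BS2 (log2 fold changes -3.10 and 3.16). Among the called importers, Slc39a2 did not pass the filter in BS6 against SB2, nor did Slc39a4 and Slc39a7 in SB4 against BS2. They passed it through their higher group, and their calls are no independent support of a difference.

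Since glucocorticoids induce Mt1 and Mt2, 8 glucocorticoid-response genes were also counted. In SB4 against SB2, 3 were called higher and 1 lower, and in BS6 against BS2, 4 higher and 1 lower (medians -0.23 and 1.00), where 27.8% and 28.6%, and then 29.0% and 26.5%, of all genes tested were called higher and lower. Tsc22d3 was at 184 ± 37.7 CPM in BS6 and 37.8 ± 5.05 CPM in BS2 (log2 fold change 2.33), and Pdk4 at 45.7 ± 12.9 against 9.36 ± 0.709 CPM (2.32). Zbtb16 and Klf9 were higher in SB4 than in SB2 (log2 fold changes 3.47 and 2.07), Cdkn1a was lower (-1.54), and Klf9 was lower in BS6 than in BS2 (-1.10). Apart from Slc30a2, Slc39a2, Slc39a4 and Slc39a7, the genes named here from the lists as called had an adjusted p of at most 0.00086. For those genes it was at most 0.0046 (Slc39a2 in BS6 against BS2). Both limits are from edgeR's quasi-likelihood test, Benjamini-Hochberg.

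**Figure D5:**
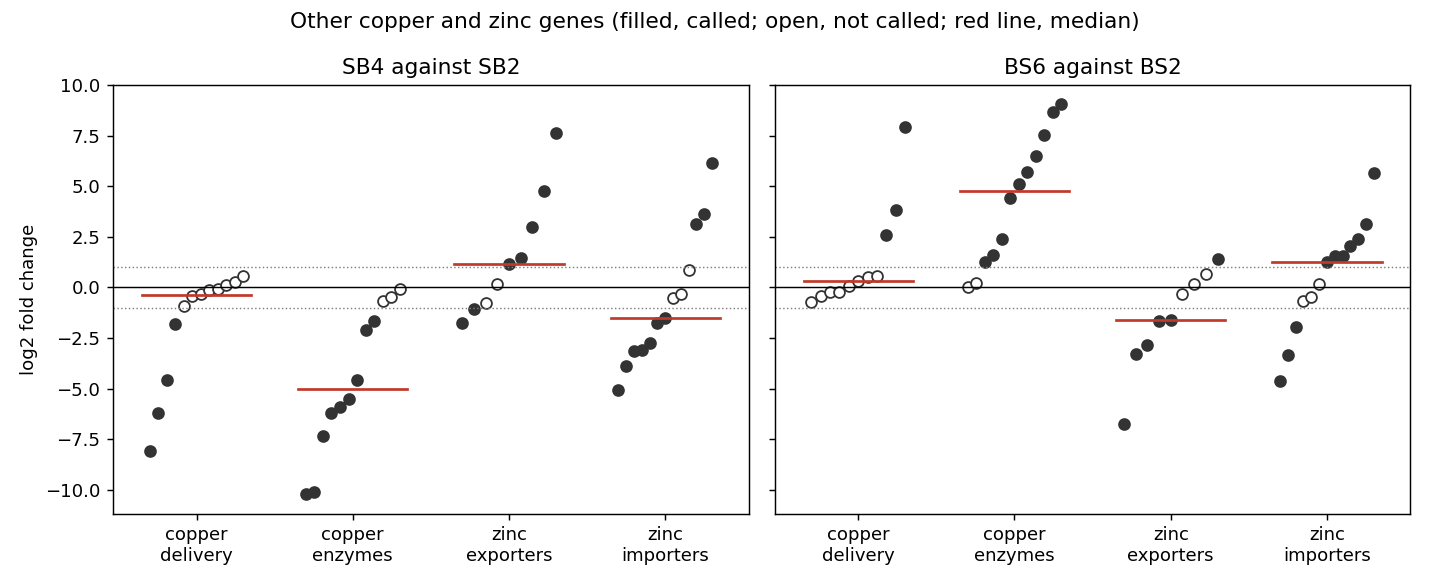
Log2 fold change (vertical axis) of every tested gene of 4 lists of further copper and zinc genes, in SB4 against SB2 (left) and BS6 against BS2 (right). Each point is a gene, filled where it was called, the red line is the list's median and the dotted lines mark the fold change threshold. Copper enzymes lie below 0 on the left (median -5.03) and above 0 on the right (median 4.77), and zinc exporters hold called genes in both directions.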

How the data were processed

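Libraries of poly(A) mRNA from 4 groups of 3 samples were analysed, with groups taken from the sample labels. Reads had been filtered with fastp and aligned to mm10 with HISAT2 2.1.0 (submitters' processing notes), and the authors deposited raw counts per gene symbol. The counter, its annotation, its use of strand and whether the counts precede the study's ComBat_seq correction are not given in the sources used here. The matrix held 0 columns of other samples. Counts were tested with edgeR 4.0.16 (R 4.3.3). Low genes were removed by filterByExpr (minimum count 10), TMM factors and a robust glmQLFit were used, and p-values of the quasi-likelihood test were adjusted by Benjamini-Hochberg over all genes tested. Calls needed an adjusted p below 0.05 and a log2 fold change above 1 in size. Each comparison was fitted on its 6 libraries, and the contrast of both changes on all 12.

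CPM used TMM factors over the 12 libraries. Coordinates and lengths are those of GENCODE M21 on mm10, which held 22022 of the 22317 symbols. RefSeq promoters matched 9 of the 10 genes. The members and lists were chosen with earlier results of these data known. The genes named from each further list were up to 2 called genes with the largest and up to 2 with the smallest fold change among those at 10 CPM or more in the higher group, and Slc31a2, Cox11, Cox17 and Sod1 were named after their values were seen. As alternatives, DESeq2 1.42.0 replaced edgeR, scaling used upper-quartile or RLE factors or the total counts alone, the filter was dropped or required 10 counts in each library, and the fits had a replicate block, all 12 libraries, calls by adjusted p alone, each library left out or, added after seeing the data, the length of the principal transcript. The p-values set a difference between groups against the spread between the 3 libraries within each group. Each fit pooled this spread over its groups and adjusted it by the spread of other genes. The tests were checked on simulated counts with the same spread for every gene and few changed genes. These data differ from that setting, so the check does not vouch for the tests here. The result of 1 gene is not reported here.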

Additional observations from a re-analysis of the deposited data

Results flagged for a closer look

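The change from SB2 to SB4 differed from the change from BS2 to BS6 for 6 of the 9 genes tested by adjusted p alone, where 84.9% of all genes tested passed, and for 5 with the fold change threshold as well, where 35.8% were called higher and 37.8% lower, so that these counts do not set the genes apart. The test was the interaction contrast of edgeR's quasi-likelihood test over 12 libraries (adjusted by Benjamini-Hochberg). The difference was 4.65 on the log2 scale for Mt3 (adjusted p = 1.386e-08), 4.33 for Atp7b (adjusted p = 0.000107), -4.03 for Slc31a1 (adjusted p = 1.59e-08), -4.46 for Atox1 (adjusted p = 1.912e-09) and -2.03 for Ccs (adjusted p = 2.233e-07). For Mtf1 it was 0.87 (adjusted p = 0.00176), under the fold change threshold. For Mt3, Slc31a1, Atox1 and Ccs, each later library lay on one side of each earlier library in both labelled tissues, and the sides were opposite. The share of all genes that did so was not counted, so this separation does not set the genes apart. Atp7b separated the days in SB4 against SB2 alone. By its arithmetic the contrast sets SB4 and BS2, which held brain transcripts, against SB2 and BS6, which held bone transcripts, and a difference shared by both later groups cancels in it. Between SB4 and BS2 themselves the log2 fold change was 0.0032 for Mt3, 0.05 for Slc31a1 and 0.12 for Atox1.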

How the results depend on the processing

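Of 717 values of single genes under alternatives, 683 kept their direction and side of the threshold, 11 passed it and 23 changed sign, none of them called (-0.24 to 0.24 on the log2 scale, adjusted p 0.725 to 0.999). With libraries left out in turn, sign changes occurred for Atp7a in SB4 against SB2 (-0.455 to 0.0541), BS6 against BS2 (-0.0003 to 0.26), BS6 against SB2 (-0.375 to 0.0892) and SB4 against BS2 (-0.23 to 0.24); for Sco1 in SB4 against SB2 (-0.108 to 0.0521) and SB4 against BS2 (-0.101 to 0.0736); for Mt1 in BS6 against BS2 (-0.0873 to 0.750) and BS6 against SB2 (-0.68 to 0.16); and in SB4 against BS2 for Mt3 (-0.0976 to 0.0766), Mtf1 (-0.0464 to 0.0545), Slc31a1 (-0.0053 to 0.155) and Atp7b (-0.24 to 0.29).

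Counts of called members moved as follows. SB4 against SB2 had 1 higher member with at least 10 counts in every library, a filter that removes Atp7b, and so had the contrast of both changes. BS6 against BS2 had 2 lower members in the fit over all 12 libraries and 1 to 2 with libraries left out (2 without BS6 replicate 1, when Atp7b was called), and 2 to 3 higher (3 without BS6 replicate 2, when Ccs was called). BS6 against SB2 had 1 higher member by DESeq2 and in the fit over all 12 libraries, and 0 to 1 with libraries left out (1 without BS6 replicate 2). Without BS6 replicate 2 the contrast for Mtf1 was 1.07 and was called, and without BS6 replicate 1 that for Mt1 was -1.05 (adjusted p = 0.00892, edgeR, and 0.00892 to 0.424 over 20 alternatives). Scaled by total counts only, Ccs was at 29.1 CPM in SB2.

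Over all genes, BS6 against SB2 had 752 higher and 320 lower by DESeq2, 947 and 326 in the fit over all 12 libraries, 373 and 559 by adjusted p only, and 0 to 397 and 0 to 270 with libraries left out (0 and 0 without any 1 of the SB2 libraries, 397 and 270 without BS6 replicate 2). SB4 against BS2 had 29 and 17 by DESeq2, 26 and 24 without filter, 9 higher with at least 10 counts in every library, 3 and 5 in the fit over all 12 libraries, 93 and 60 by adjusted p only, and 11 to 68 and 7 to 47 with libraries left out.

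The replicate numbers did not pair the samples: same-numbered libraries had r of -0.144 to 0.108 between their deviations from group means over 18 pairs, and 4 of 12 libraries correlated best with their own number. With the replicate number as a block, BS6 against SB2 had 0 higher and 0 lower genes, SB4 against BS2 had 22 and 39, and Atp7b in SB4 against BS2 was -0.0259. Depth limits Mt2 and Atp7b most, with 0 to 20 and 5 to 85 counts per library.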
